A study of Drosophila melanogaster with 9 samples.

Results

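Transcripts of *tbrd-2* knockdown testes (*bam*≫*tbrd-2RNAi*) were set against those of testes that carry the hairpin transgene without a driver (undriven *tbrd-2RNAi*). All 18952 probe sets of the Affymetrix Drosophila Genome 2.0 array were compared over 6 of the 9 arrays, 3 from each genotype. The 3 arrays of the driver control *bam*-Gal4 are given beside them to show which changes are not found against that control. Knockdown males carried 2 copies of *bam*-Gal4, on the X chromosome and chromosome 3, and 1 copy of *tbrd-2RNAi* on chromosome 3. *bam*-Gal4 males carried the same 2 driver copies over a chromosome 3 homologue marked with *Sb*, and undriven males carried 1 copy of *tbrd-2RNAi* over such an *Sb* homologue. Knockdown males had no *Sb* homologue. All males were 0 to 2 days old and were kept at 30°C, and each array stands for pooled whole testes (30 animals per the labels). The driver is active in the germline, so the hairpin is driven in germ cells, and it comes from a single RNAi line. The stage at which the hairpin begins to act was not measured.

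In *Drosophila* males, primary spermatocytes transcribe the genes that spermatids will need, because transcription nearly ceases around meiosis. Much of this transcription depends on the testis meiotic arrest complex (tMAC), Mediator and the testis-specific TBP-associated factors (tTAFs). tBRD-2 is a testis-specific member of the BET family of bromodomain proteins. Bromodomains can recognise acetylated histones. In the authors' peptide assays, however, tBRD-2 showed no preference for acetylated histone tails, and acetylation seemed to lower its binding.

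The deposited values are on a log2 scale, on which a difference of 1 is a 2-fold change. Array medians lay between 5.86 and 5.96, and arrays of the same genotype correlated with r of 0.988 to 0.997 across probe sets, which are not independent. Calls needed a Benjamini-Hochberg adjusted p under 0.05 in limma together with a difference of 1 or more, up or down, on this scale. Of the 44 gene lists examined, those for germline stem cells and spermatogonia (8 genes measured), cyst cells and hub (8), muscle sheath (7), fat body (5) and yolk proteins (3) held 0 called genes, with medians of 0.02, −0.03, −0.12, 0.06 and −0.07. Without knockdown array 3, *bam*-Gal4 array 2 and undriven array 3, which were highest in accessory gland or gut transcripts, the muscle sheath median was −0.33 with 7 of 7 genes below 0 and 0 passing an adjusted p under 0.05. At an unadjusted p under 0.05, 2, 1, 2, 0 and 0 of their genes differed. Transcripts of accessory gland and gut varied between arrays of the same genotype and are described beside the results they move with. In whole testes, fewer cells of a type and less RNA per cell cannot be told apart.

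*tbrd-2*, a gene of chromosome arm 2R, stood at 8.06, 7.82 and 8.05 on the knockdown arrays, against 10.19, 10.39 and 10.36 on the undriven arrays. The groups did not overlap, and the difference was −2.34 (standard error 0.09, adjusted p = 3.75e-06 from limma). The related bromodomain gene *tbrd-1* stood at 10.34, 10.53 and 10.47 in knockdown testes and at 9.99, 10.11 and 10.07 in undriven testes. This was a difference of 0.39, which passed the adjusted p (0.00676 from limma) but not the fold limit. *tbrd-3* differed by −0.07 (adjusted p = 0.6 from limma).

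Knockdown testes had 119 lower probe sets (0.628% of all) and 120 higher ones (0.633%) than undriven testes. They stand for 101 named genes with lower and 96 with higher values, besides 16 lower and 23 higher probe sets that carry no single gene symbol here. The arrays of the 2 genotypes did not overlap for 118 of the 119 lower probe sets, *Drs* being the exception, and for all 120 higher ones. Among all 18952 probe sets, 18.1% lay lower and 17.4% higher without overlap. The median change was −1.23 for the lower and 1.26 for the higher probe sets. A size of at least 2 on the log2 scale was reached by 12 lower and 10 higher probe sets, and 31 lower and 29 higher ones were under 1.1 in size. The mean on the undriven arrays, which is itself part of the comparison, was at least 8 for 73 of the 119 lower and 17 of the 120 higher probe sets (28.31% of all), and under 6 for 11 and 67 of them (51.02% of all).

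**Figure D1:**
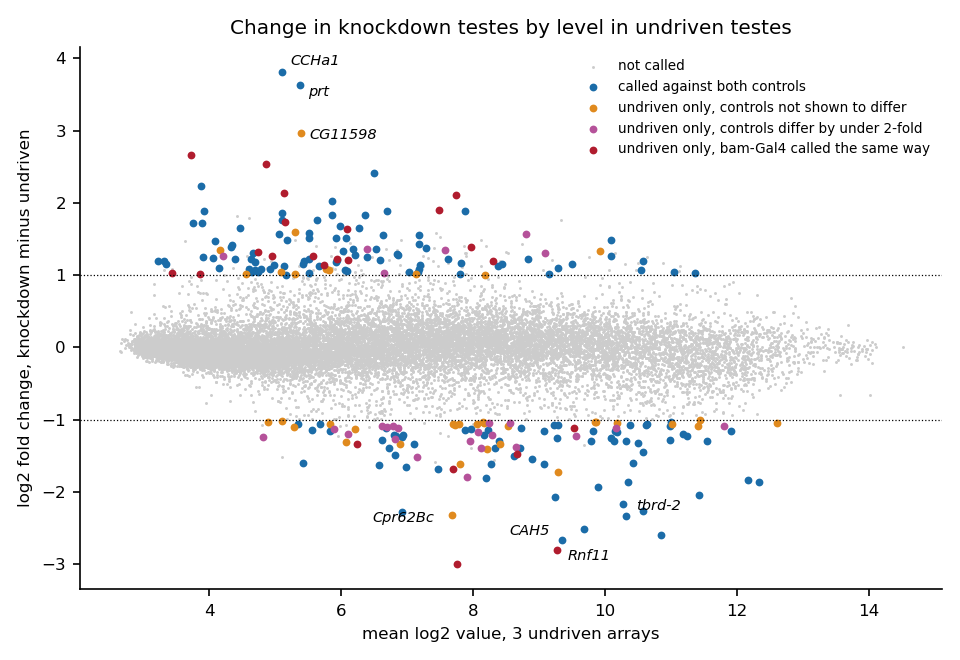
Log2-fold change of each probe set (knockdown minus undriven, y axis) against its mean log2 value on the 3 undriven arrays (x axis), with dotted lines at the fold limit of 1. Called probe sets are coloured by whether they were also called against *bam*-Gal4 and whether the controls differed. The 119 lower probe sets lie mostly to the right of 8 and the 120 higher ones mostly to the left of 8.

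Among the genes called against both controls, the largest 12 decreases are left aside here, and the next 12 by the smaller of their changes were *CG11893*, *CG12645*, *CG14635*, *CG15152*, *CG16772*, *CG17648*, *CG33233*, *CG4267*, *CG9449*, *Tsf1*, *DIP-delta* and *Ir85a*. Their log2-fold changes against the undriven control ran from −2.27 (*CG11893*) to −1.30 (*CG9449*). *CG33233*, *CG4267* and *DIP-delta* each had another probe set that was not called, at −0.61, −0.14 and −0.03. *CG11893* stood at 4.98, 4.63 and 4.36 in knockdown, 6.16, 6.47 and 5.96 in *bam*-Gal4 and 6.87, 6.94 and 6.98 in undriven testes (adjusted p = 4.04e-05 from limma). It was lowest on every knockdown array, and the controls were not shown to differ from each other by limma (−0.73, adjusted p = 0.0609). *DIP-delta* encodes an immunoglobulin-domain protein of the neuronal surface. It gave 6.92, 6.75 and 7.13 in knockdown, 8.66, 8.42 and 8.78 in *bam*-Gal4 and 8.30, 8.36 and 8.32 in undriven testes (−1.39, adjusted p = 7.65e-05 from limma). *Ir85a*, an ionotropic receptor gene, gave 5.91, 5.74 and 5.70 in knockdown, 7.35, 6.83 and 7.0 in *bam*-Gal4 and 7.66, 7.50 and 7.25 in undriven testes (−1.69, adjusted p = 9.64e-05 from limma). For both genes every knockdown array was below every control array.

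*Tsf1*, which encodes the iron-binding protein transferrin 1 and was called by 1 of its 3 probe sets, gave 9.45, 9.09 and 9.02 in knockdown, 11.77, 10.29 and 10.81 in *bam*-Gal4 and 10.57, 10.24 and 10.70 in undriven testes. Knockdown was again the lowest group, with the widest spread in *bam*-Gal4. Its log2-fold change of −1.32 passed limma at an adjusted p of 0.0187 but no longer passed when knockdown array 2 or 3 or undriven array 1 or 3 was left out (adjusted p = 0.0557, 0.0604, 0.0588 and 0.0578). *CG16772*, at −1.55 (adjusted p = 0.0192 from limma), was likewise lost without knockdown array 1 or 3 or undriven array 3 (adjusted p = 0.0678, 0.0618 and 0.0582).

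Other genes lower than in both controls are named here for their known functions, after their values were seen. They include enzymes and protein-quality genes. *Hsc70-1*, of the Hsp70 chaperone family, stood at 9.27, 9.02 and 8.8 in knockdown and at 10.51, 10.23 and 10.22 in undriven testes (−1.29, adjusted p = 2.37e-04 from limma), by 1 of its 3 probe sets. Its brightest probe set had −0.31 and its dimmest −0.60 (adjusted p = 0.0438 and 0.00442 from limma), and neither was called. The acylphosphatase gene *Acyp* stood at 10.30, 10.14 and 10.28 in knockdown and 11.54, 11.56 and 11.51 in undriven testes (−1.30, adjusted p = 8.18e-06 from limma). Both genes were lower on every knockdown array. The COP9 signalosome gene *CSN1a* had a log2-fold change of −1.04, *ste24b*, for a prenyl protease, −1.09, and *e* (*ebony*), whose enzyme joins beta-alanine to dopamine, −1.22. Against both controls the zinc-finger transcription factor genes *drm* (−1.14) and *esg* (−1.11) and the RNA-binding protein gene *Rbp9* (−1.21) also fell, as did *zyd*, for a sodium and calcium exchanger (−1.15). *Rbp9* had another, dimmer probe set that was not called (−0.20, adjusted p = 0.469 from limma).

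The increases against both controls that follow the largest 12 were those of *CG10140*, *CG10559*, *CG17362*, *CG31436*, *CG33341*, *CG34281*, *CG4459*, *CG5810*, *Delta*, *Sr-CIV*, *scro* and *mia*. Their log2-fold changes against the undriven control ran from 1.36 (*Delta*, *CG34281*) to 1.72 (*CG33341*). *Delta*, which encodes a ligand of Notch, stood at 7.88, 7.92 and 7.87 in knockdown, 6.59, 6.37 and 6.39 in *bam*-Gal4 and 6.44, 6.67 and 6.48 in undriven testes (adjusted p = 2.58e-05 from limma). Its second probe set, dim, gave 4.82, 4.63 and 4.06 in knockdown, 3.74, 3.41 and 3.09 in *bam*-Gal4 and 3.05, 3.51 and 3.50 in undriven testes, a difference of 1.15 that was also called. On both probe sets every knockdown array was above every control array. *scro*, for an NK2-class homeodomain protein, stood at 7.72, 7.59 and 7.48 in knockdown, 6.13, 5.91 and 6.20 in *bam*-Gal4 and 6.11, 6.20 and 5.93 in undriven testes, with 1.52 against each control (adjusted p = 3.33e-05 against undriven from limma). *Sr-CIV*, a scavenger receptor gene, gave 6.64, 6.73 and 6.62 in knockdown, 5.21, 4.93 and 5.27 in *bam*-Gal4 and 4.81, 5.38 and 5.36 in undriven testes (1.48, adjusted p = 2.50e-04 from limma). For both, the control groups overlapped each other and lay below the knockdown arrays.

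Further genes higher than in both controls, named for their functions after their values were seen, include channels, receptors and regulators. *pip*, for a sulfotransferase that acts in dorsoventral patterning of the embryo, stood at 8.62, 8.56 and 8.65 in knockdown, 7.57, 7.52 and 7.51 in *bam*-Gal4 and 7.15, 7.31 and 7.07 in undriven testes, by 1 of its 10 probe sets (1.43, adjusted p = 1.00e-05 from limma). The glutamate receptor subunit gene *GluRIIE* had a log2-fold change of 1.29, the calcium-activated potassium channel gene *slo* 1.09, the phosphatidylinositol transfer protein gene *rdgB* 1.28, the kinase gene *Sik3* 1.2 and the cytochrome P450 gene *Cyp6a13* 1.38. *rdgB* and *Sik3* each had another probe set that was not called, at 0.47 and 0.09 (adjusted p = 0.0102 and 0.515 from limma). The transcription factor genes *hkb* (1.05) and *bab1* (1.07) rose as well.

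A sharper question is which changes against the undriven control were not called against the driver control. Against *bam*-Gal4, which shares the knockdown arrays, there were 94 lower (0.496%) and 150 higher (0.791%) probe sets. Among the 119 below the undriven control, 67 (60 genes) were also called lower against *bam*-Gal4 and 52 (41 genes) were not. Of the 120 higher ones, 86 (69 genes) were also called and 34 (27 genes) were not. For the 67 and 86 probe sets called against both, the median difference between *bam*-Gal4 and undriven testes was −0.03 and −0.07. For the 52 and 34 called against undriven only, the controls were themselves apart, with medians of −0.58 and 1.03 for *bam*-Gal4 minus undriven. The medians against *bam*-Gal4 in these groups were −0.64 and 0.39, in place of −1.12 and 1.29 against the undriven control. The groups were formed with these contrasts, so the medians are a description.

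The difference between *bam*-Gal4 and undriven testes is the test of whether a change differs between the controls, and it was called for 39 lower (0.206%) and 33 higher probe sets (0.174%) of the array. Of the 34 higher probe sets called against undriven only, 17 had the same call in *bam*-Gal4 set against undriven testes, 6 passed the adjusted p below the fold limit and 11 did not pass. Of the 52 lower ones, 6 had it, 20 passed below the fold limit and 26 did not pass. For those 26 and 11 probe sets the controls were not shown to differ, and their medians against *bam*-Gal4 were −0.84 and 0.79. A missed call against *bam*-Gal4 is therefore not the same as no change there. Limma gave an adjusted p under 0.05 against *bam*-Gal4 in the same direction for 35 of the 52 lower and 13 of the 34 higher probe sets, of which 15 and 6 reached at least 0.8 in size.

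**Figure D2:**
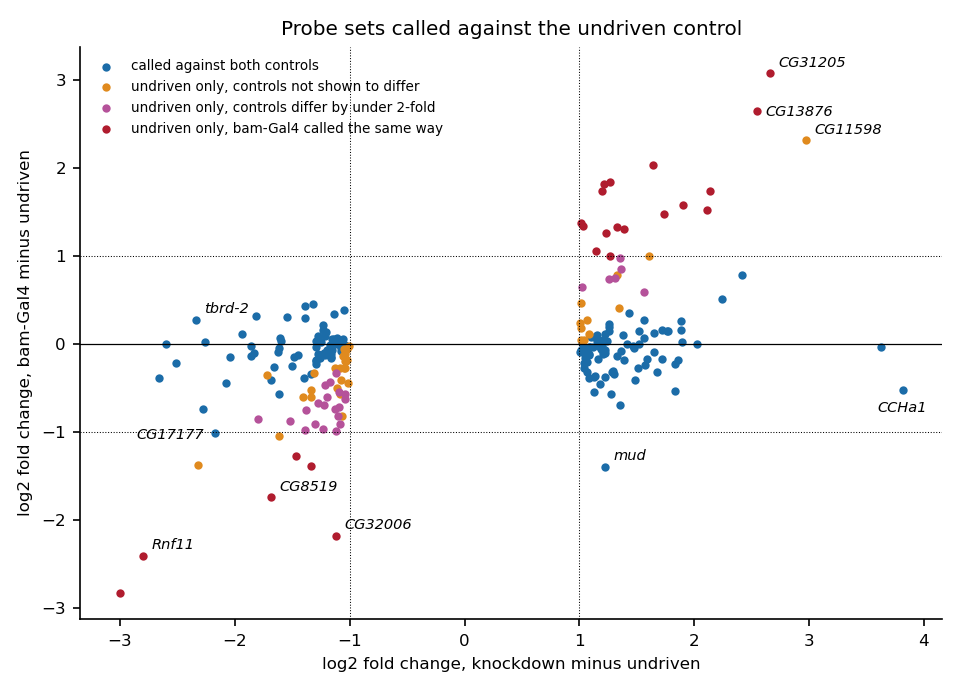
Difference of *bam*-Gal4 minus undriven (y axis, log2) against knockdown minus undriven (x axis, log2) for the 239 probe sets called against the undriven control. Both axes use the same undriven arrays. The 153 called against both controls lie mainly along 0 on the y axis, while the 6 lower and 17 higher ones that *bam*-Gal4 shares lie beyond the dotted lines at 1.

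The lower probe sets called against undriven only were led, among named genes, by *Rnf11*, *Cpr62Bc*, *lncRNA:CR40053*, *Drs*, *CG8519*, *PGRP-SB1*, *CG9757*, *Nt5b*, *CG6040* and *DptB*. The single largest decrease against the undriven control was that of an unnamed probe set at −3.0, which stood at −0.17 against *bam*-Gal4. *Nt5b*, for a 5′-nucleotidase, stood at 7.09, 7.24 and 7.25 in knockdown, 7.52, 7.28 and 7.37 in *bam*-Gal4 and 8.92, 8.60 and 8.47 in undriven testes. Both groups with the driver lay below every undriven array, with −1.47 for knockdown (adjusted p = 6.65e-05 from limma) and −1.27 for *bam*-Gal4 (adjusted p = 4.91e-04). *CG8519* gave 5.88, 6.03 and 6.11 in knockdown, 6.19, 6.0 and 5.66 in *bam*-Gal4 and 8.02, 7.56 and 7.49 in undriven testes, with −1.68 against the undriven control and 0.06 against *bam*-Gal4. *CG6040* was intermediate in *bam*-Gal4, at 6.67, 6.76 and 6.78 in knockdown, 7.31, 7.04 and 7.09 in *bam*-Gal4 and 8.04, 8.26 and 8.07 in undriven testes. Its log2-fold change was −1.39 (adjusted p = 3.02e-05 from limma) against undriven and −0.41 (adjusted p = 0.012) against *bam*-Gal4.

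For *Cpr62Bc*, a cuticle protein gene, the arrays were spread widely, at 5.31, 4.89 and 5.86 in knockdown, 6.74, 5.83 and 6.32 in *bam*-Gal4 and 6.41, 8.40 and 8.22 in undriven testes. Undriven array 1 lay within the range of *bam*-Gal4. The log2-fold change was −2.32 (standard error 0.49, adjusted p = 0.0103 from limma) against undriven and −0.94 (adjusted p = 0.231) against *bam*-Gal4, and the controls were not shown to differ (−1.38, adjusted p = 0.293). The noncoding gene *lncRNA:CR40053* stood at 6.10, 6.26 and 5.96 in knockdown, 7.35, 6.88 and 6.93 in *bam*-Gal4 and 8.01, 7.99 and 7.72 in undriven testes, 3 separate levels, with −1.80 and −0.95 against undriven and *bam*-Gal4.

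Among those called lower against undriven only are also genes that were close to the limit against *bam*-Gal4, named after their values were seen. The RNA-silencing factor gene *vig* had log2-fold changes of −1.05 against undriven and −0.99 against *bam*-Gal4, the RNA-binding protein gene *BicC* −1.04 and −0.85, the homeobox gene *ftz* −1.06 and −0.92, *Drep3*, related to DNA fragmentation factors, −1.04 and −0.96, and the neuroligin gene *Nlg3* −1.13 and −0.85. *Drep3* was called by 1 of 2 probe sets, the brighter one being at 0.01 (adjusted p = 0.964 from limma), and *Nlg3* by 1 of 4, the others lying between −0.29 and −0.02. By contrast, the metabolic genes *Ppcs* (coenzyme A synthesis; −1.27 and −0.61), *Gcat* (glycine C-acetyltransferase; −1.04 and −0.48) and *Cyp12a5* (−1.10 and −0.28) differed between the controls at an adjusted p of 0.0024, 0.0066 and 0.0023 from limma.

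The higher probe sets called against undriven only were led, among named genes, by *CG11598*, *CG31205*, *CG13876*, *CG1299*, *CG42846*, *RabX2*, *CG13053*, *MtnB*, *ogre* and *Spn88Eb*. Of these 10 genes, *CG31205*, *CG13876*, *CG1299*, *CG42846*, *RabX2*, *CG13053* and *ogre* were also called when *bam*-Gal4 was set against undriven testes. *RabX2*, for a Rab-family GTPase, stood at 9.50, 9.34 and 9.32 in knockdown, 9.14, 8.95 and 9.08 in *bam*-Gal4 and 7.28, 7.49 and 7.67 in undriven testes, which gives 1.91 for knockdown (adjusted p = 1.35e-05 from limma) and 1.58 for *bam*-Gal4 (adjusted p = 9.27e-05). *ogre*, which encodes the gap junction protein innexin 1, stood at 9.29, 9.44 and 9.34 in knockdown, 9.35, 9.25 and 9.21 in *bam*-Gal4 and 7.78, 8.15 and 7.97 in undriven testes. Here the arrays of knockdown and *bam*-Gal4 overlapped, and all 6 lay above the undriven ones. *CG42846* gave 9.70, 9.79 and 10.06 in knockdown, 9.42, 9.19 and 9.19 in *bam*-Gal4 and 7.76, 7.84 and 7.62 in undriven testes. It was highest in knockdown and passed the adjusted p against *bam*-Gal4 as well (0.58, adjusted p = 0.0056 from limma), below the fold limit. The serpin gene *Spn88Eb* showed the same order with 7.58, 7.80 and 7.89 in knockdown, 7.27, 7.20 and 7.28 in *bam*-Gal4 and 6.4, 6.38 and 6.41 in undriven testes.

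*CG11598* had the largest increase of this group, 2.97, and the widest spread, with a standard error of 0.76 (adjusted p = 0.0241 from limma). It stood at 8.50, 7.47 and 9.13 in knockdown, 6.09, 9.62 and 7.42 in *bam*-Gal4 and 5.67, 5.14 and 5.38 in undriven testes. The mean log2 value of 29 accessory gland and ejaculatory duct genes was 9.46, 9.10 and 10.73 in knockdown, 7.52, 10.75 and 9.32 in *bam*-Gal4 and 9.38, 8.40 and 8.83 in undriven testes, so within each genotype the arrays stood in the same order for *CG11598* and for this list. The part of such transcripts in the result was not tested. The increase was not called without knockdown array 1 or 3 or any single undriven array (adjusted p = 0.0561 to 0.0811 from limma). *MtnB*, a metallothionein gene, gave 6.67, 6.42 and 7.65 in knockdown, 6.27, 6.36 and 6.30 in *bam*-Gal4 and 5.30, 5.20 and 5.43 in undriven testes (1.6, adjusted p = 0.00252 from limma), with knockdown array 3 above the rest.

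Some regulators were called higher against undriven and missed a call against *bam*-Gal4, and are named after their values were seen. *Stat92E*, the transcription factor of the JAK/STAT pathway, had log2-fold changes of 1.01 against undriven and 0.96 against *bam*-Gal4, the LIM homeobox gene *Awh* 1.04 and 1.00 (just under the limit), the netrin receptor gene *unc-5* 1.01 and 0.83, and *tipE*, an auxiliary protein of sodium channels, 1.34 and 0.93. These 4 also passed the adjusted p against *bam*-Gal4 (3.52e-05, 0.0153, 5.66e-04 and 0.0212 from limma), below the fold limit, and the controls were not shown to differ. *Awh* had 0.74 without knockdown array 3. The ubiquitin ligase gene *Cbl* (1.26 and 0.52), the folliculin gene *BHD* (1.35 and 0.37), the spliceosomal gene *Dim1* (1.31 and 0.55) and the repressor gene *cic* (1.03 and 0.38) differed between the controls at an adjusted p of at most 0.00966 from limma. *Cbl*, *cic*, *Awh* and *unc-5* were called by 1 of 2 probe sets each, and the brighter probe set of *Cbl* had 0.04 (adjusted p = 0.843).

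**Figure D3:**
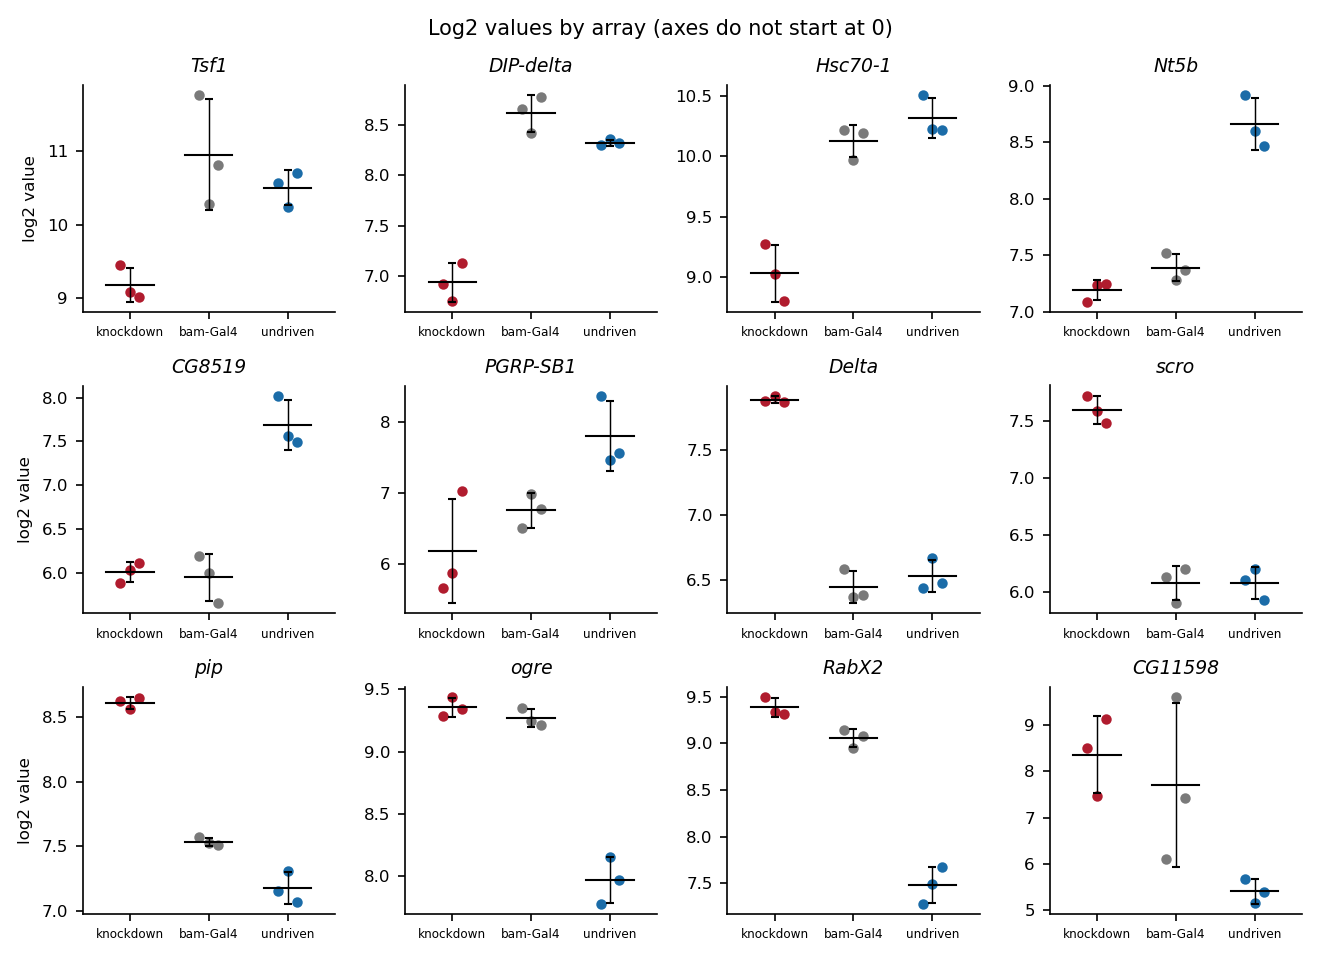
Log2 values of 12 genes on each array (points), with the mean (bar) and SD (whiskers) of the 3 arrays of knockdown, *bam*-Gal4 and undriven testes, from left to right. Each gene is shown by its called probe set of the largest change. *Tsf1*, *DIP-delta*, *Hsc70-1*, *Delta*, *scro* and *pip* stand apart from both controls in knockdown, while *Nt5b*, *CG8519*, *ogre* and *RabX2* have *bam*-Gal4 close to knockdown.

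A few genes differed from both controls by unequal amounts. *CG17177*, the only gene called lower in knockdown than in both controls and in *bam*-Gal4 than in undriven testes, stood at 8.16, 8.09 and 8.05 in knockdown, 9.31, 9.22 and 9.26 in *bam*-Gal4 and 10.17, 10.39 and 10.25 in undriven testes. The 3 genotypes stood at 3 levels about equally far apart, with −2.17 against undriven (adjusted p = 1.34e-06 from limma) and −1.16 against *bam*-Gal4. *mud* encodes a spindle-orientation protein. By 1 of its 3 probe sets it was highest in knockdown and lowest in *bam*-Gal4, at 9.74, 10.32 and 10.13 in knockdown, 7.68, 7.42 and 7.23 in *bam*-Gal4 and 8.83, 8.89 and 8.79 in undriven testes. Its other probe sets were not called, with 0.61 and 0.63 against undriven. On them *bam*-Gal4 was not the lowest group, with means of 9.78 and 9.37 beside 9.59 and 9.34 in undriven testes. *CG32006* stood between its controls, at 8.70, 8.61 and 7.93 in knockdown, 7.53, 7.26 and 7.28 in *bam*-Gal4 and 9.79, 9.28 and 9.53 in undriven testes.

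The called probe sets lay on all the large chromosomes. On chromosome 2, for which the labels give the same genotype in all groups, 47 probe sets were called against both controls and 14 against undriven only, of 5219. The difference between the controls was called there at 0 probe sets. Below the fold limit it passed the adjusted p for some, such as *CG2772* (−0.91, adjusted p = 1.44e-04 from limma) and *Dim1* (0.75, adjusted p = 0.0019). On chromosome 3, which carries the driver, the hairpin and the *Sb* homologue, the counts were 69 and 45 of 6115. The difference between the controls was called at 41. On the X chromosome the counts were 15 and 7 of 2208, and the difference between the controls was called at 8. Of the 86 probe sets called against undriven only, 23 were those that *bam*-Gal4 shares, of which 0 lay on chromosome 2, 11 on chromosome 3, 3 on the X chromosome and 2 on chromosome 4, with 7 unplaced. On the small chromosome 4, 3 of 82 probe sets were lower than in undriven testes, those of *Rnf11* and *CG32006* among them, and 0 were called the same way against *bam*-Gal4. *Rnf11*, for a RING finger protein, stood at 6.31, 7.03 and 6.09 in knockdown, 7.10, 6.59 and 6.92 in *bam*-Gal4 and 9.10, 9.32 and 9.40 in undriven testes by 1 of its 2 probe sets. Chromosome 3 genotype, driver and hairpin differ together between these groups, and their parts cannot be told apart.

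**Figure D4:**
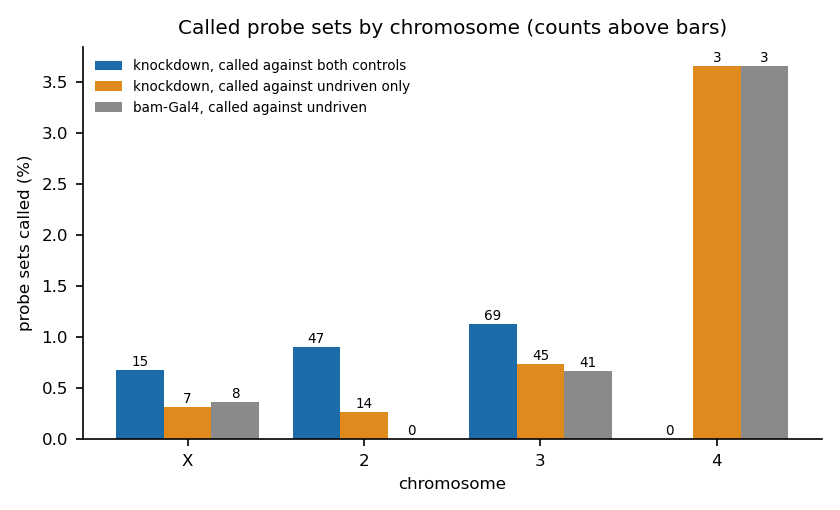
Share of each chromosome's probe sets (%) that were called in knockdown against both controls, in knockdown against undriven only, and in *bam*-Gal4 against undriven, with counts above the bars. Chromosome 2 has 47, 14 and 0, and chromosome 3 has 69, 45 and 41. Chromosome 4 has only 82 probe sets.

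The comet and cup genes are the exceptional transcripts that accumulate after meiosis in elongating spermatids. Of 16 measured, 0 were called and 9 were lower at an adjusted p under 0.05, where 11.2% of the 11953 named genes were lower at that p. Over all probe sets this share was 9.1%, with 9.96% higher. The list median was −0.35 against undriven and −0.40 against *bam*-Gal4, beside 0.01 over all named genes against undriven. The mean of the 16 genes was 10.13, 10.19 and 10.11 in knockdown, 10.54, 10.40 and 10.41 in *bam*-Gal4 and 10.60, 10.55 and 10.47 in undriven testes, with the knockdown arrays below all others. The lowest were *t-cup* (−0.78), *f-cup* (−0.68), *hale* (−0.67), *schuy* (−0.66) and *w-cup* (−0.65), while *soti* was at −0.00 and *r-cup* at −0.05. All 16 had a value below 0 in the main analysis, and 15 after renewed quantile normalization.

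Among 33 axonemal dyneins, tubulin ligases and other flagellar genes, 2 were called lower and 0 higher, and 10 were lower and 0 higher at an adjusted p under 0.05, with a median of −0.14. By any probe set, 0.845% of named genes were called lower, and by brightest probe set 11.2% were lower at that adjusted p. *TTLL6A*, for a tubulin tyrosine ligase-like enzyme, stood at 9.43, 9.62 and 9.58 in knockdown, 10.74, 10.56 and 10.55 in *bam*-Gal4 and 10.69, 10.61 and 10.55 in undriven testes (−1.07, adjusted p = 4.97e-05 from limma). The brighter probe set of *TTLL6A* had −0.90 (adjusted p = 2.25e-04 from limma) and was not called. The other called gene was *TbCMF46* (−2.08). Among 12 genes of sperm individualization, 0 were called, and 2 were lower and 1 higher at an adjusted p under 0.05 (11.2% and 13.3% of named genes). The list median was −0.135, with 7 genes below 0 and 5 above. The Cullin-3 adaptor gene *klhl10* had −0.85 against undriven and −1.14 against *bam*-Gal4 (adjusted p = 0.0094 and 0.00202 from limma), and *Cul3* −0.39 (adjusted p = 0.00713). Of 15 spermiogenic genes known to need tMAC and tTAFs, 0 were called and 4 were lower at an adjusted p under 0.05 (11.2% of named genes), with a median of −0.09. In 19 testis paralogs of respiratory chain subunits the values were split. *COX6AL2* had −0.93 and *ND-51L1* −0.91 (adjusted p = 3.24e-05 and 1.13e-04 from limma), just inside the fold limit, *ND-24L* had 0.48, and the list median was −0.01.

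Genes of the Y chromosome, which are transcribed in spermatocytes, were chosen after their values were seen. Against undriven testes all 8 measured Y genes had values below 0, with a median of −0.48, while the median over the genes of each other chromosome arm lay between −0.00 and 0.04. At an adjusted p under 0.05, 5 were lower and 0 higher, and 0 reached the fold limit. Among all named genes, 11.2% were lower at that adjusted p. *Ppr-Y* gave 7.0, 6.87 and 6.98 in knockdown, 7.76, 7.47 and 7.33 in *bam*-Gal4 and 7.74, 7.86 and 7.75 in undriven testes (−0.83, adjusted p = 6.78e-04 from limma). *kl-2*, for an axonemal dynein heavy chain, gave 5.91, 6.48 and 6.30 in knockdown, 7.34, 7.07 and 6.95 in *bam*-Gal4 and 7.18, 6.95 and 6.95 in undriven testes (−0.80, adjusted p = 0.00616 from limma). For both the knockdown arrays were below all control arrays. *WDY* had −0.64, *kl-5* −0.49 and *ORY* −0.46, and *kl-3*, *ARY* and *Pp1-Y2* did not pass, with −0.33, −0.22 and −0.01. Against *bam*-Gal4 the median was −0.45, but *kl-3* had 0.23 (adjusted p = 0.434 from limma) and *Pp1-Y2* 0.28 (adjusted p = 0.0352), so that *Pp1-Y2* was higher than in that control.

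Most ribosomal protein genes had slightly higher values in knockdown. Of 41 genes of the cytosolic ribosome on the list, 0 were called higher, 18 were higher and 2 lower at an adjusted p under 0.05 (13.3% of named genes were higher), and the median was 0.21 against undriven and 0.20 against *bam*-Gal4. Values above 0 were found for 37 of the 41, against 50.4% of all named genes. The list mean was 11.90, 11.80 and 11.88 in knockdown, 11.64, 11.73 and 11.72 in *bam*-Gal4 and 11.64, 11.69 and 11.67 in undriven testes. *RpL37-2* (0.71), *RpLP0* (0.45) and *RpL24-like* (0.45) had the highest values among the genes named here. The paralog *RpS28a* went the other way. It stood at 8.29, 7.92 and 8.21 in knockdown, 9.23, 9.31 and 9.18 in *bam*-Gal4 and 9.24, 9.32 and 9.10 in undriven testes (−1.08, adjusted p = 1.70e-04 from limma), and the difference was −0.97 without knockdown array 2.

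Of 69 measured genes of the mitochondrial ribosome, 0 were called, 24 were higher and 1 lower at an adjusted p under 0.05, the median was 0.16 against undriven and 0.20 against *bam*-Gal4, and 58 were above 0. The highest were *mRpS24* (0.61), *mRpL42* (0.60) and *mRpL22* (0.57). The exception, *mRpL55*, had −0.93 with undriven testes as reference (adjusted p = 5.27e-05 from limma) but −0.00 with *bam*-Gal4. Both ribosomal lists kept positive medians after renewed quantile normalization (0.25 and 0.13) and with each array centred on its median (0.20 and 0.15).

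**Figure D5:**
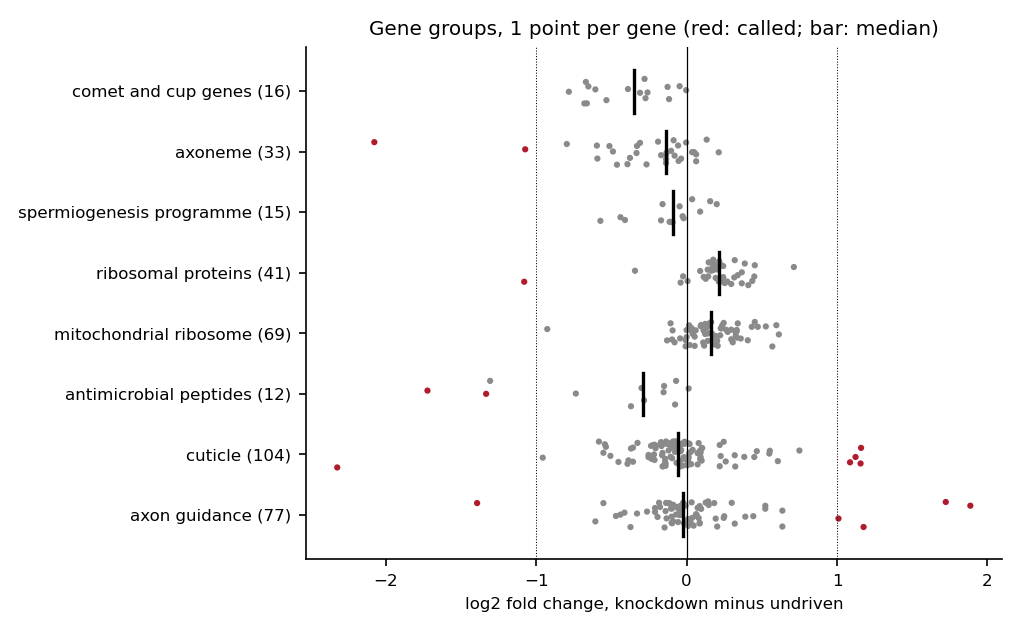
Log2-fold change (knockdown minus undriven, x axis) of the genes of 8 lists, 1 point per gene, with called genes in red and a bar at each list's median; the number of genes is in parentheses. The comet and cup genes lie below 0 and most ribosomal protein genes above 0, all but a few within the dotted lines at the fold limit.

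Of 12 antimicrobial peptide genes, 2 were called lower than in undriven testes (0.812% of all named genes) and 0 than in *bam*-Gal4. *Drs* (Drosomycin) gave 6.59, 8.67 and 7.44 in knockdown, 8.77, 9.20 and 8.85 in *bam*-Gal4 and 9.76, 8.33 and 9.78 in undriven testes. Knockdown array 2 lay above undriven array 2, and the call (−1.72, adjusted p = 0.0462 from limma) was lost when any 1 of 7 arrays, all but knockdown array 2 and undriven array 2, was left out (adjusted p = 0.0597 to 0.141). *DptB* (Diptericin B) gave 6.62, 6.92 and 7.68 in knockdown, 7.70, 7.75 and 7.96 in *bam*-Gal4 and 8.93, 7.76 and 8.53 in undriven testes (−1.33, adjusted p = 0.0175 from limma), and was not called without knockdown array 1 or 2 or undriven array 1 or 3 (adjusted p = 0.0621, 0.0557, 0.0598 and 0.052). *PGRP-SB1*, for a peptidoglycan recognition protein, gave 5.66, 5.87 and 7.02 in knockdown, 6.5, 6.99 and 6.77 in *bam*-Gal4 and 8.37, 7.47 and 7.56 in undriven testes (−1.62, adjusted p = 0.0119 from limma). For these defence genes *bam*-Gal4 lay between or within the other groups, and the controls were not shown to differ (adjusted p = 0.876 for *Drs*, 0.547 for *DptB* and 0.257 for *PGRP-SB1* from limma). Among the rest, *CecB* was at −0.74 (adjusted p = 3.72e-04) and *Mtk* at −1.31 (adjusted p = 0.0754).

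Of 104 cuticle protein genes, 4 were higher and 1 lower, with a median of −0.06. The Tweedle gene *Twdlalpha* had log2-fold changes of 1.16 against undriven and 1.33 against *bam*-Gal4, *TwdlG* 1.09 and 1.48, and *Cpr78E* 1.12 and 1.5, the last under the fold limit without knockdown array 2 (0.995). Of 77 axon guidance and neuronal surface genes, 4 were higher and 1 lower, with a median of −0.02. They were *beat-Ia*, *trn*, *unc-5* and the immunoglobulin and leucine-rich repeat gene *kek3* (1.18 and 1.21), and *DIP-delta*. By any probe set, 0.845% of named genes were called lower and 0.803% higher, and by brightest probe set 0.812% and 0.77%. Of 174 chemoreceptor genes 2 were lower (*Ir85a* and *Gr93d*) and 0 higher, and of 83 cytochrome P450 genes 1 was lower (*Cyp12a5*) and 1 higher (*Cyp6a13*). Against *bam*-Gal4, 2 chemoreceptor genes were lower and 3 higher, and 0 cytochrome P450 genes were lower and 2 higher. Of the 44 lists, 28 held 0 called genes.

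The accessory gland and ejaculatory duct list had a median of 1.06 against undriven, with 26 of 29 genes above 0, and 0 called. At an unadjusted p under 0.05, 1 gene was lower and 2 were higher. The list's name pattern also took in *Msp300* and *Acp65Aa*. Of 39 gut enzyme genes 0 were called, with a median of −0.39 and 5 lower at an unadjusted p under 0.05. Their mean was 4.98, 5.01 and 6.32 in knockdown, 5.20, 5.23 and 5.18 in *bam*-Gal4 and 5.40, 5.22 and 6.88 in undriven testes, so that knockdown array 3 and undriven array 3 stood apart. Without these arrays and *bam*-Gal4 array 2, an alternative chosen after seeing the data, 123 probe sets were lower and 121 higher, and 102 of the 119 and 107 of the 120 were still called. The accessory gland and ejaculatory duct list then had a median of 0.58, with 24 of 29 genes above 0.

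Several called genes were neighbours. On arm 2L, *CG12506*, *CG13946* and *CG13947* follow each other, with *Gr21a* between the last of them and *CG3544*, and all of these but *Gr21a* were called lower than in both controls. *CG12506* stood at 10.90, 10.02 and 10.08 in knockdown and 11.97, 12.27 and 12.25 in undriven testes, and *CG3544* at 8.59, 8.38 and 8.50 in knockdown and 9.92, 9.88 and 9.55 in undriven testes. Knockdown array 1 was the highest of its group for both. In all, 8 adjacent pairs of called genes changed the same way and 1, *CG4704* (−1.16) and *klg* (1.19), opposite ways, and with 1 gene between them 5 pairs changed the same way and 3 opposite ways. Some same-way neighbours were called against undriven but not against *bam*-Gal4, such as *CG6040* and *Cyp12a5* with *Ppcs* nearby, whereas *Tsf1* was called against both controls and its neighbour *Nt5b* against undriven alone. The pairs are given without regard to strand, and probes of overlapping genes were not separated.

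Of 133 noncoding RNA genes and pseudogenes measured, 6 were called lower and 0 higher, where 0.845% of all named genes were lower and 0.803% higher by any probe set. Besides *lncRNA:CR40053* the lower ones are *lncRNA:CR41601* (−1.40), *lncRNA:CR33948* (−1.23), *lncRNA:CR31526* (−1.23), *CR7448* (−1.08) and *lncRNA:CR45472* (−1.03). *lncRNA:CR33948* did not pass without knockdown array 1 or 3 or undriven array 1 or 3 (adjusted p = 0.064 to 0.0814 from limma). Of 28 called genes with several probe sets, 3 (*CG9449*, *Delta* and *Ppcs*) had all of them called, and 25 had only some called.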

How the data were processed

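The authors deposited log2 values made with affy and RMA (background correction, quantile normalization and summary per probe set), per the labels and methods, with 1 value per probe set and array. The versions of affy and RMA were not given in the sources used here. From these values, limma 3.58.1 in R 4.3.3 (lmFit, eBayes) was fitted to all 9 arrays with a mean per genotype (6 residual degrees of freedom, 9.23 with those borrowed by eBayes), and p-values were adjusted by Benjamini-Hochberg over all 18952 probe sets in each comparison. No filter was applied. Labels call the arrays replicates, and the methods give independent hybridizations. The number of arrays limits the precision.

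Symbols came from the platform table (13647 probe sets with 1 symbol, 402 with several, 4903 unnamed), and chromosomes and neighbours from the RefSeq gene table (Release 6 plus ISO1 MT), which held 13635 of them. In a list, each gene counts by its called probe set of the largest change, or by its brightest where none was called. List medians, means and counts above or below 0 use the brightest probe set. Counts by chromosome take every probe set. The members and the 44 lists were chosen with earlier results of these data known. Named genes are *tbrd-1*, *tbrd-2* and *tbrd-3*, ranks 13 to 24 in each direction against both controls by the smaller change, the 10 largest in each direction against undriven only, and up to 4 called members of a list or its 2 brightest. Others are said to be chosen after their values were seen. On simulated data for knockdown against undriven (18952 probe sets), 90% of changes of 1.2 and 100% of changes of 1.5, 2 and 3 on the log2 scale were called, with 1 of 18752 unchanged probe sets. Its noise was independent between probe sets, unlike that of the real arrays, where 1 component held 46.9% of the residual variance. Alternatives were a replicate block, the 6 arrays alone, renewed quantile normalization, median centring, limits on the mean of 5 or 6, array weights, an intensity trend, other thresholds, and leaving out each array. Promoter motifs were not analysed here. Figures used matplotlib 3.10.9 and Python 3.11.15. A single result is not reported here.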

Additional observations from a re-analysis of the deposited data

How the results depend on the processing

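The decrease of *tbrd-2* and the counts of lower and higher probe sets, in all and against undriven only, stayed within 1.5 times of the main values under renewed quantile normalization, median centring, array weights, an intensity trend, an adjusted p under 0.01 and a limit of 5 on the mean. With a limit of 6 on the mean, 74 probe sets were higher in place of 120, as fewer dim probe sets were tested. With a fold of at least 1.5 in place of 2, 510 were lower and 444 higher, and 201 and 118 of these were not called against *bam*-Gal4. Leaving out each array in turn gave 111 to 127 lower and 109 to 130 higher probe sets, 46 to 65 lower and 31 to 39 higher ones against undriven only, and −2.40 to −2.26 for *tbrd-2*. The labels and methods do not state whether replicate numbers pair the samples. The deviations of same-numbered knockdown and undriven arrays correlated at 0.04, 0.30 and 0.33. They were 0.18, −0.58 and −0.02 for knockdown and *bam*-Gal4, and −0.37, −0.27 and 0.04 for *bam*-Gal4 and undriven. Differently numbered arrays were not compared, so these values do not decide whether the numbers are pairs. With the replicate number as a block, 119 probe sets were lower and 120 higher, of which 117 and 120 are among the main calls. The block ended the call of *Drs* (adjusted p = 0.0857 from limma), as did the fit of 6 arrays alone (0.0857), and that of *lncRNA:CR33948* (0.0512). At an adjusted p under 0.01, *CG16772*, *Tsf1*, *CG11598*, *PGRP-SB1*, *DptB*, *Drs*, *Cpr62Bc*, *Awh* and *lncRNA:CR33948* were among the genes no longer called. Without the arrays highest in accessory gland or gut transcripts, *CG16772*, *CG4267*, *Tsf1*, *Drs* and *lncRNA:CR33948* did not pass the adjusted p (0.125, 0.0693, 0.0601, 0.245 and 0.189 from limma), and *Cyp12a5* (−0.98), *Awh* (0.76), *CG32006* (−0.88), *Stat92E* (0.995), *cic* (0.96), *ftz* (−0.98) and *lncRNA:CR45472* (−0.92) did not reach the fold limit. Of 43 called genes named after their values were seen, 20 lost the call without 1 array, *lncRNA:CR33948* by its adjusted p and the rest by the fold limit, with sizes of 0.74 or more and adjusted p of at most 0.0202. The cause of each loss was not tested. Directions under the alternatives were compared for named genes only, and among these no alternative turned the direction of a call.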
